A study of Mus musculus with 2 samples.

Results

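Inhibitors of cyclin-dependent kinases (Cdk) and the cyclins of G1 were examined in mouse kidney as 10 genes: the CIP/KIP inhibitors Cdkn1a, Cdkn1b and Cdkn1c, the INK4 inhibitors Cdkn2a, Cdkn2b and Cdkn2c, the D-type cyclins Ccnd1, Ccnd2 and Ccnd3, and the E-type cyclin Ccne1. They were chosen by symbol for their roles in cell cycle entry, arrest and senescence. Of the 10, 9 were analysed, out of 20002 genes in all, and Cdkn2a was not analysed here. All 9 were among the 17469 expressed genes, which had at least 10 scaled reads in 1 library, but Ccne1 met this limit only in the library labelled CKO.

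Bulk RNA-seq of kidney compared mice in which Regnase-2, a ribonuclease that degrades mRNA, was targeted with control mice, and each group had 1 library. The Reg-2 CKO group consisted of C57BL/6J mice that received an adeno-associated virus of serotype 9 (AAV9) by tail vein at 11 weeks of age. The virus carried a short hairpin RNA (shRNA) against Regnase-2, so the group was designed as a knockdown although it is labelled a conditional knockout, and by the study's methods this vector preferentially reaches the proximal tubule. The control mice received AAV9 with control shRNA by 1 passage of the study's methods and an empty vector by another. The age at collection is likewise given as 14 weeks for the RNA-seq and as 16 weeks for the AAV9 mice. RNA came from left kidney tissue by the methods and from whole kidneys by the labels, neither group is labelled with a further treatment, and whether a library holds 1 mouse or a pool is not given in the sources used here.

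The control library held 38851231 reads and the library labelled CKO 43588721, as recovered from the deposited values by removing a constant from each column. To set the libraries on 1 scale, the reads of the CKO column were multiplied by 0.667, so that the median gene ratio became 1, and are called scaled reads. With no replicate, no difference has a check against the spread between mice, and each ratio is given with a 95% Clopper-Pearson interval. These intervals cover counting error only. They take reads as independent, which PCR reads without molecular identifiers are not, so they can be too narrow even for counting error.

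The targeted gene, Zc3h12b, which encodes Regnase-2, had 47 control reads and 59 reads in the other library, or 39.3 after scaling. Its log2 ratio was -0.25, with an interval from -0.83 to 0.33 that holds 0, so these reads do not check the labels and the group is called the library labelled CKO throughout. The libraries did differ in the injury genes Lcn2, with 28 control reads against 3797 and a log2 ratio of 6.45, and Havcr1, at 3.12, which do not measure Regnase-2 itself. The other Regnase genes had log2 ratios of 0.69 (Zc3h12a), -0.49 (Zc3h12c) and 2.59 (Zc3h12d, with 8 and 80 reads, which was kept only for its reads in the library labelled CKO, so that this filter set its direction). The tissue label was met by the proximal tubule markers, of which 10 of 10 were expressed, with Slc34a1 at 147064 control reads.

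Cdk inhibitors and G1 cyclins decide together whether a cell leaves G1 and copies its DNA. D-type cyclins are made in response to growth signals and activate Cdk4 and Cdk6, E-type cyclins activate Cdk2, and these kinases phosphorylate the retinoblastoma protein, which then releases E2F transcription factors. INK4 proteins block Cdk4 and Cdk6, CIP/KIP proteins bind cyclin and kinase together, and in the kidney Cdkn1a is known as a p53 target that is induced in tubules after injury.

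Cdkn1a and Ccne1 were far higher in the library labelled CKO, Cdkn1c was close to 2-fold higher, and the other 6 genes lay between a log2 ratio of -0.6 and 0.6. Of the 9 genes, 2 passed the 2-fold threshold upward and 0 downward, where 13.4% of all expressed genes passed it upward and 5.35% downward. Of the 2, Ccne1 had its direction set by the filter on reads, and without it 1 of 8 passed. The log2 ratios of the 9 had a median of 0.34, or 0.31 without Ccne1, beside 0.022 for all expressed genes. The counting interval lay above 0 for 5 genes and below 0 for 1 gene, and it held 0 for Cdkn1b, Cdkn2b and Ccnd3. In bulk kidney RNA, fewer cells of a type and less RNA per cell cannot be told apart, and this holds for every level given here.

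**Figure D1:**
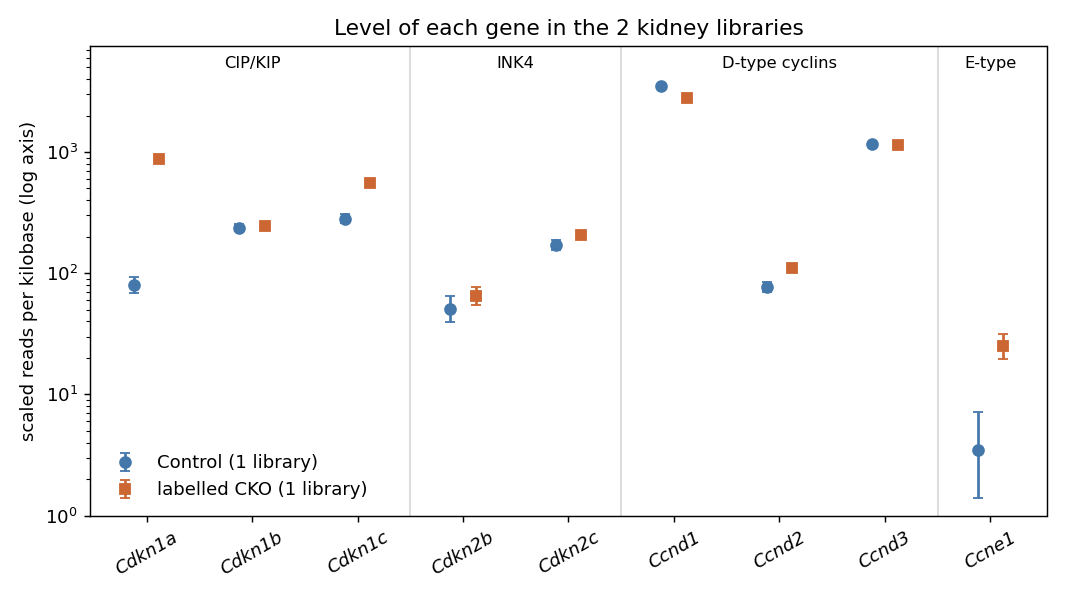
Scaled reads per kilobase of the longest protein-coding transcript (log axis) for the 9 genes, grouped by family, in the control library (circles) and the library labelled CKO (squares); bars are exact 95% Poisson intervals for counting error. Cdkn1a lay at 80.3 and 869, whereas Cdkn1b lay at 238 and 247, and Ccnd1 was the highest in both libraries at 3479 and 2778.

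Cdkn1a encodes p21, the CIP/KIP inhibitor through which p53 halts cells in G1. It lies on the plus strand at chr17:29090976-29100727 in the GENCODE M21 annotation of GRCm38, the mm10 build named in the submitters' processing notes. The control library held 167 Cdkn1a reads, and the library labelled CKO held 2711, or 1807 after scaling. The CKO value was 10.8-fold higher, with an interval from 9.25 to 12.7, and its log2 ratio of 3.43 (3.21 to 3.67) ranked 97 from the top among the 17469 expressed genes. Of expressed genes, 99.4% had a lower ratio, and among the 9 genes only Ccne1, whose wide interval of 1.72 to 4.20 spans that of Cdkn1a, was not apart from it within counting error.

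RefSeq places 2 start sites in Cdkn1a, and the 250 bases before each are shown because this gene was among the 2 past 2-fold, together with those before Cdkn1b, the relative whose ratio was near 0. The sequences are from RefSeq on GRCm38.p6, written 5′ to 3′ on the plus strand, from chr17:29090729-29090978, chr17:29093519-29093768 and chr6:134920151-134920400. Capitals mark a match to the p53 response element, searched on both strands as adjacent half-sites of 10 bases with at most 1 mismatch, none of it in the central C and G of a half-site.
Cdkn1a, upstream start: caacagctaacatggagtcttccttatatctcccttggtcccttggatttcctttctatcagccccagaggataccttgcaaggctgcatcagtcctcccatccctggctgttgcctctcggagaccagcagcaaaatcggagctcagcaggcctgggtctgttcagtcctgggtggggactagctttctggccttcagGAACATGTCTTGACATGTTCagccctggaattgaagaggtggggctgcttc
Cdkn1a, downstream start: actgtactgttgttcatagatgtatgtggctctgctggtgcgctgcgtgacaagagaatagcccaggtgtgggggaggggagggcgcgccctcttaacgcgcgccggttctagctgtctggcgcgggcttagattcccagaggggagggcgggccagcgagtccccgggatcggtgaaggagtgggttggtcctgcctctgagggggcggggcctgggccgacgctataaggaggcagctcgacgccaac
Cdkn1b: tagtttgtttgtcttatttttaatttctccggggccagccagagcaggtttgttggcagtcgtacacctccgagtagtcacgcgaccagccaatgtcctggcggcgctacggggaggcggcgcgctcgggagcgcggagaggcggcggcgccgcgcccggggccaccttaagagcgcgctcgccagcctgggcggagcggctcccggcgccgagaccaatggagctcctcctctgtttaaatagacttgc

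The match before the upstream start of Cdkn1a began 51 bases before the start site and had 1 mismatch, and the windows before its downstream start and before Cdkn1b held no match. The element was found in 19 of 32851 windows of this length, or 0.0578%. RefSeq windows covered 7 of the 10 genes, namely Cdkn1a, Cdkn1b, Cdkn2a, Cdkn2b, Cdkn2c, Ccnd3 and Ccne1, and Cdkn1a was the only one of these with a match. Among the 15 genes with a window in the list of p53 targets used here, only Ccng1 had a match, at chr11:40755287-40755536 on the minus strand, 195 bases before its start. That list does not hold every p53 target: Rps27l, which is outside it, also had a match. The matched stretches of Cdkn1a and Ccng1 are given in capitals.
Cdkn1a: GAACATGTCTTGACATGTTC
Ccng1: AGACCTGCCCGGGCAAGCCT

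These matches are descriptions of the sequence and not evidence that p53 was bound. Ccng1, a cyclin G gene and known p53 target, had 8324 control reads and 16765 reads in the library labelled CKO, or 11177 after scaling. Its log2 ratio was 0.43, well below the 3.43 of Cdkn1a, so the genes with this match differed widely in ratio.

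Cdkn1b encodes p27, the CIP/KIP inhibitor typical of resting cells, and lies at chr6:134920401-134925513. It had 1084 control reads and 1683 reads in the library labelled CKO, or 1122 after scaling, a 1.04-fold ratio with an interval from 0.958 to 1.12. The libraries were therefore alike for Cdkn1b within counting error, and its log2 ratio of 0.05 ranked 8330. Equal library totals in place of the median gene ratio moved it to 0.47.

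Cdkn1c encodes p57, an imprinted CIP/KIP inhibitor that in the kidney is known from podocytes, and lies on the minus strand at chr7:143458339-143461050. The control library had 534 reads and the library labelled CKO 1592, or 1061 after scaling. Cdkn1c was 1.99-fold higher, with an interval from 1.80 to 2.20 that spans the 2-fold threshold. Its log2 ratio of 0.99 ranked 2356, and it passed the threshold at 1.02 with equal upper quartiles and at 1.41 with equal totals. Whether Cdkn1c is counted as at least 2-fold higher thus depends on the scaling. The 8 podocyte markers, given for comparison, had 0 genes past 2-fold in either direction and summed scaled reads of 9307 and 9174.

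Within the CIP/KIP family the make-up of the reads changed, a comparison that needs no scaling between the libraries. Of 1785 family reads in the control library, Cdkn1b held 60.7%, Cdkn1c 29.9% and Cdkn1a 9.36%. Of 5986 family reads in the library labelled CKO, Cdkn1a held 45.3%, Cdkn1b 28.1% and Cdkn1c 26.6%. Cdkn1a thus went from the lowest share of the family to the highest, and its Clopper-Pearson intervals, 8.04% to 10.8% and 44.0% to 46.6%, lay far apart. Corrected for the length of the longest protein-coding transcript, the Cdkn1a share of the family was 13.4% for the control and 51.9% for the library labelled CKO. Per kilobase of all exonic bases, Cdkn1a at 509 lay just below Cdkn1c at 521 in the library labelled CKO. Whether Cdkn1a is first in the family per length thus depends on the length used. For each 100 reads of Cdkn1b the control had 15.4 reads of Cdkn1a and the library labelled CKO had 161.

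**Figure D2:**
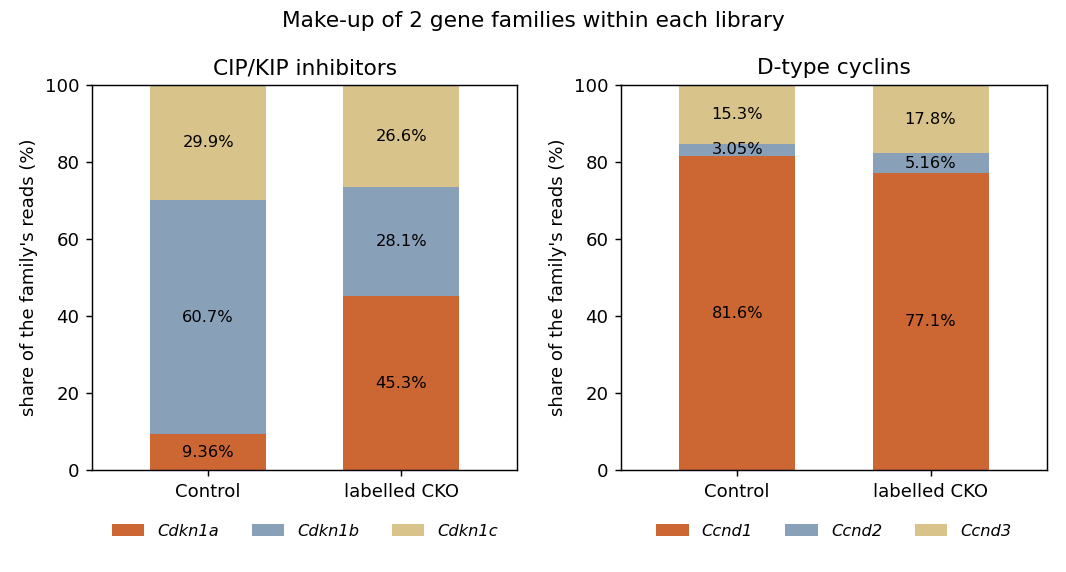
Share of each family's reads (%, from 0) held by each gene in both libraries, for the CIP/KIP inhibitors (left) and the D-type cyclins (right). The Cdkn1a share was 9.36% and 45.3%, while Ccnd1 held 81.6% and 77.1% of the D-type reads.

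Cdkn2b encodes p15, an INK4 inhibitor known to respond to TGF-beta, and lies on the minus strand at chr4:89306299-89311039. It had 71 control reads and 135 reads in the library labelled CKO, or 90 after scaling, a log2 ratio of 0.34 with an interval from -0.08 to 0.78. A difference in Cdkn2b was not detectable at this depth. Cdkn2b was the gene with the fewest reads after Ccne1.

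Cdkn2c encodes p18, an INK4 inhibitor of Cdk4 and Cdk6, and lies on the minus strand at chr4:109660876-109667189. There were 420 control reads against 769 in the library labelled CKO, or 513 after scaling, with a log2 ratio of 0.29 and an interval from 0.11 to 0.46. Cdkn2c was slightly higher in the library labelled CKO beyond counting error and did not reach the 2-fold threshold. The proportion between the 2 INK4 genes did not differ beyond counting error, and Cdkn2b made up 14.5% of their reads in the control (11.5% to 17.9%) and 14.9% in the library labelled CKO (12.7% to 17.4%).

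Ccnd1 encodes cyclin D1, the D-type cyclin most directly tied to growth signals, and lies on the minus strand at chr7:144929931-144939925. The control library held 13010 reads of it, and the library labelled CKO held 15586, or 10391 after scaling. The CKO value was 0.799 times the control value, with an interval from 0.780 to 0.818, and the log2 ratio of -0.32 ranked 13032. Ccnd1 was the only one of the 9 genes with an interval entirely below 0. This direction depends on the scaling, because the log2 ratio was 0.09 with equal totals, and the values as deposited gave 0.26.

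Ccnd2 encodes cyclin D2 and lies on the minus strand at chr6:127125162-127152193. The control library had 486 reads, against 1043 for the library labelled CKO, or 695 after scaling. The log2 ratio was 0.52, with an interval from 0.36 to 0.68, and ranked 4151. Ccnd2 was thus the D-type cyclin with the highest ratio, below the 2-fold threshold, and it reached 0.93 with equal totals and 1.07 when the deposited values were used unchanged.

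Ccnd3 encodes cyclin D3 and lies on the plus strand at chr17:47505051-47599691. With 2447 control reads and 3588 reads in the library labelled CKO, or 2392 after scaling, its log2 ratio was -0.03, with an interval from -0.11 to 0.04. The libraries were alike for Ccnd3 within counting error, although equal totals gave 0.39.

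The D-type cyclins together had 15943 control reads, against 20217 for the library labelled CKO. Ccnd1 held 81.6% of them in the control (81.0% to 82.2%) and 77.1% in the library labelled CKO (76.5% to 77.7%). The Ccnd2 share was 3.05% and 5.16%, and that of Ccnd3 15.3% and 17.8%. Ccnd1 was the main D-type cyclin of both libraries, also per length (73.8% and 69.1%), with a smaller share in the library labelled CKO whatever the scaling. For each 100 Ccnd1 reads, with no correction for length, the control had 1.28 Cdkn1a reads and the library labelled CKO had 17.4. Per kilobase of the longest protein-coding transcript, Cdkn1a lay at 80.3 and 869 and Ccnd1 at 3479 and 2778. The 2 transcripts were thus far closer in level in the library labelled CKO.

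Ccne1 encodes cyclin E1, which activates Cdk2 at the entry to S phase, and lies on the minus strand at chr7:38097984-38107534. Only 7 control reads were counted, against 75 for the library labelled CKO, or 50 after scaling. Ccne1 was 7.14-fold higher, with a wide interval from 3.30 to 18.4, and the log2 ratio of 2.67 (1.72 to 4.20) ranked 288. Ccne1 counted as expressed only through the library labelled CKO, so its direction was set by that filter, and the low control count leaves its fold imprecise. The size also depends on the constants removed, since the log2 ratio was 1.02 when they were kept and the columns scaled.

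Ccne2, which encodes the other E-type cyclin, had 14 control reads against 121, with a log2 ratio of 2.44. Ccne1 made up 33.3% of the E-type reads in the control (14.6% to 57.0%) and 38.3% in the library labelled CKO (31.4% to 45.5%). Ccne2 was higher in the library labelled CKO, whereas the direction of Ccne1 was set by the filter on reads. A change in the proportion between the E-type genes was not detectable at this depth. The E2F letters TTTCCCGC or TTTGGCGC, searched on both strands, were in 427 of the 32851 windows, or 1.30%. Among the 7 genes with a window, only Cdkn2a held them, and the window of Ccne1, at chr7:38107491-38107740 on the minus strand, did not. Of 23 E2F targets and S/G2/M genes with a window, 4 held them (Mcm5, Mcm6, Mcm7 and Cdc6), or 17.4%, beside 1.51% of all genes.

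**Figure D3:**
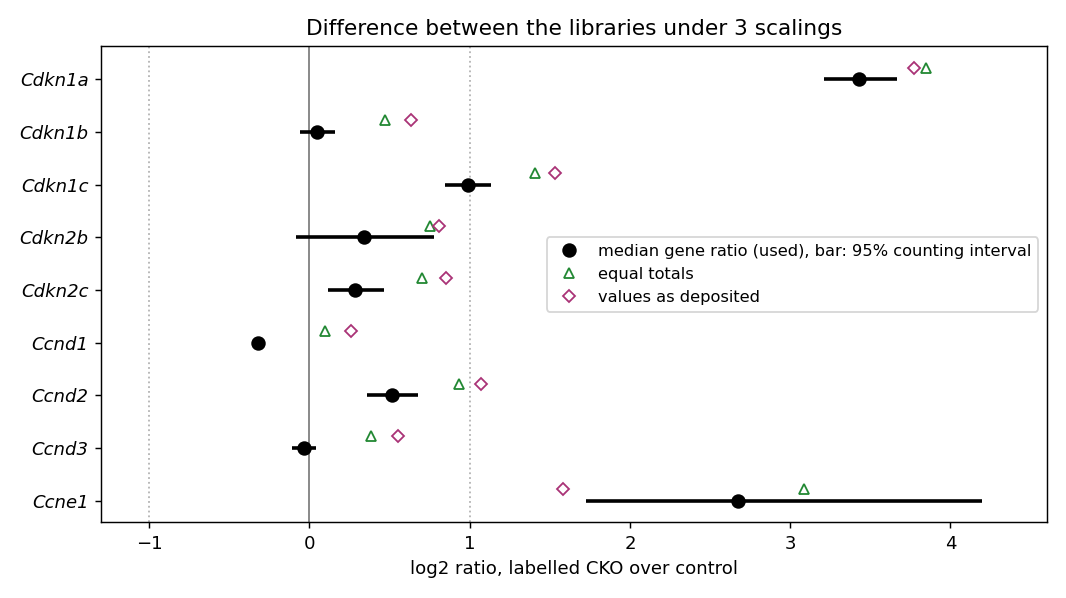
Log2 ratio of the library labelled CKO over the control for each of the 9 genes with the median gene ratio (filled circles; bars, 95% Clopper-Pearson intervals), after equal totals (triangles) and from the deposited values unchanged (diamonds); dotted lines mark 2-fold. Cdkn1a lay at 3.43, 3.85 and 3.77, and Ccnd1 changed sign, from -0.32 to 0.09 and 0.26.

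The scaling moved all genes together. Equal totals raised every log2 ratio by about 0.42, and the median of all expressed genes then was 0.44. Cdkn1a lay between 3.20 and 3.85 in every scaling and pseudocount tried, and Ccne1 between 1.02 and 3.08, so both passed 2-fold in all of them. For Ccne1 the filter on reads had set the direction.

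The order of the levels was read per length, as scaled reads per kilobase of the longest protein-coding transcript. In the control library Ccnd1 was the highest at 3479, followed by Ccnd3 at 1158, Cdkn1c at 281, Cdkn1b at 238 and Cdkn2c at 170. Below them came Cdkn1a at 80.3, Ccnd2 at 76.8, Cdkn2b at 51.1 and Ccne1 at 3.5. Of neighbours in this order only Cdkn1a and Ccnd2 had overlapping counting intervals, 68.6 to 93.4 and 70.1 to 83.9.

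In the library labelled CKO the order was led again by Ccnd1, at 2778 scaled reads per kilobase, and Ccnd3, at 1132. Cdkn1a came next at 869, above Cdkn1c at 558, Cdkn1b at 247 and Cdkn2c at 207. Ccnd2 at 110, Cdkn2b at 64.8 and Ccne1 at 25 were the lowest, as in the control. Cdkn1a thus moved from place 6 to place 3, ahead of both relatives, while the order of the other 8 genes on this scale was the same in both libraries. These places depend on the length used. Per kilobase of all exonic bases, control Cdkn1a at 47 lay below Ccnd2 at 51.7 and Cdkn2b at 51.1. On that scale Ccnd3 and Cdkn1c were at 279 and 262 in the control and changed places in the library labelled CKO, at 273 and 521, where Cdkn1a was at 509.

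By annotation, 5 of the 9 genes share exonic bases with a gene on the other strand. The library kit was stranded, but the strand setting of the counting is not given in the sources used here, so reads of such pairs cannot be told apart. For Ccnd3 the partner Bysl had 678 control reads against 787, with a log2 ratio of -0.37, and for Ccnd1 the partner LTO1 had 709 and 1075 reads. Both partners had fewer reads than the cyclin in each library. The partners of Cdkn1a, Cdkn1c and Ccnd2 were not analysed here, and Cdkn1b, Cdkn2b, Cdkn2c and Ccne1 have none in this annotation.

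The other genes of the G1 machinery are given by list, and their counts stand beside the 13.4% of all expressed genes that passed 2-fold upward. The most abundant gene of a list is the one with the most reads, with no correction for length, and the highest and lowest are by estimate, since counting intervals of neighbours can overlap. Of 6 other inhibitors and cyclins, Ccne2 and the phosphatase gene Cdkn3, at 1.19, were at least 2-fold higher, with a median of 0.41 between Ccnh at -0.15 and Ccne2. Of 8 G1 kinases and activators, only Cdc25b, a phosphatase that activates Cdks, was past 2-fold, at 1.06, with a median of 0.31. The lowest and most abundant gene of these 8 was that of the chaperone Cdc37, at -0.27. Of 12 retinoblastoma and E2F family genes, E2f7 at 1.68 and E2f2 at 1.09 were past 2-fold, with a median of 0.21, E2f5 lowest at -0.48 and Rbl2 most abundant. E2f7, with 7 control reads, counted as expressed only through the library labelled CKO, so its direction was set by that filter, and without it 1 of 11 passed. Of 13 genes for ubiquitin ligases and partners that act on G1 regulators, Dtl at 1.79 and Cks1b at 1.37 were past 2-fold, with a median of 0.03, Cks2 lowest at -0.63 and Ddb1 most abundant. In these lists 0 genes were at least 2-fold lower.

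Downstream of the G1 cyclins, 20 of 27 E2F targets and genes of S, G2 and M phase were at least 2-fold higher and 0 lower, with a median of 1.72, beside 13.4% of all expressed genes higher. Of the 20, Cdc6, Bub1 and Aurkb had 2, 9 and 9 control reads and counted as expressed only through the library labelled CKO. Their direction was set by that filter. Cdc6, which loads the replicative helicase, had the highest estimate at 4.28, with an interval from 2.95 to 7.91 that holds the 3.13 of Cdk1, Tyms was lowest at 0.11, and Pcna was most abundant, at 0.51. Cdkn1a, which restrains the cycle, was thus at least 2-fold higher in the same library as the genes among these 20 other than Cdc6, Bub1 and Aurkb. For each 100 Mki67 reads, a marker of dividing cells, the control had 194 Cdkn1a reads and the library labelled CKO had 260. Whether the same cells held both transcripts was not tested.

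Of 20 p53 targets beside Cdkn1a, 8 were at least 2-fold higher and 0 lower, beside 13.4% and 5.35% of all expressed genes, with a median of 0.68. Cdkn1a, at 3.43, had an interval that overlapped those of Eda2r at 3.74 and Gdf15 at 3.42, so the order of these 3 was not resolved, while Perp was lowest at -0.61 and Ccng1 most abundant. For each 100 reads of Mdm2, which encodes the ligase that degrades p53, the control had 11.3 Cdkn1a reads and the library labelled CKO had 83.7. Cdkn1a therefore differed more between the libraries than Mdm2 did.

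Senescence is classically read from Cdkn2a and Cdkn1a together with secreted factors and loss of lamin B1, and of these Cdkn2a was not analysed here. Of 26 secreted genes linked to senescence, 6 were not analysed here. Of the other 20, 12 were at least 2-fold higher and 0 lower, beside 13.4% and 5.35% of all expressed genes, with a median of 1.66, from Igfbp3 at -0.52 to Ccl2 at 6.22, and Igfbp7 was most abundant. Among the 12, Igfbp2 had 9 control reads and counted as expressed only through the library labelled CKO, as did Lef1, also with 9, among the mitogen genes. The direction of both was set by that filter. Of 11 other markers, Lmnb1, the lamin B1 gene, was at least 2-fold higher at 1.22, and Glb1, which encodes lysosomal beta-galactosidase and was most abundant, was just past 2-fold lower at -1.01, with a median of 0.23. The interval of Glb1, from -1.05 to -0.96, spans the 2-fold threshold. Of 15 mitogen and growth signal genes that act upstream of D-type cyclins, 7 were at least 2-fold higher and 0 lower, with a median of 0.53. Fos was highest at 2.83 and Egf, the most abundant, was lowest at -0.81. Ccnd1 itself was at -0.32, a direction that depends on the scaling, since equal totals gave 0.09.

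**Figure D4:**
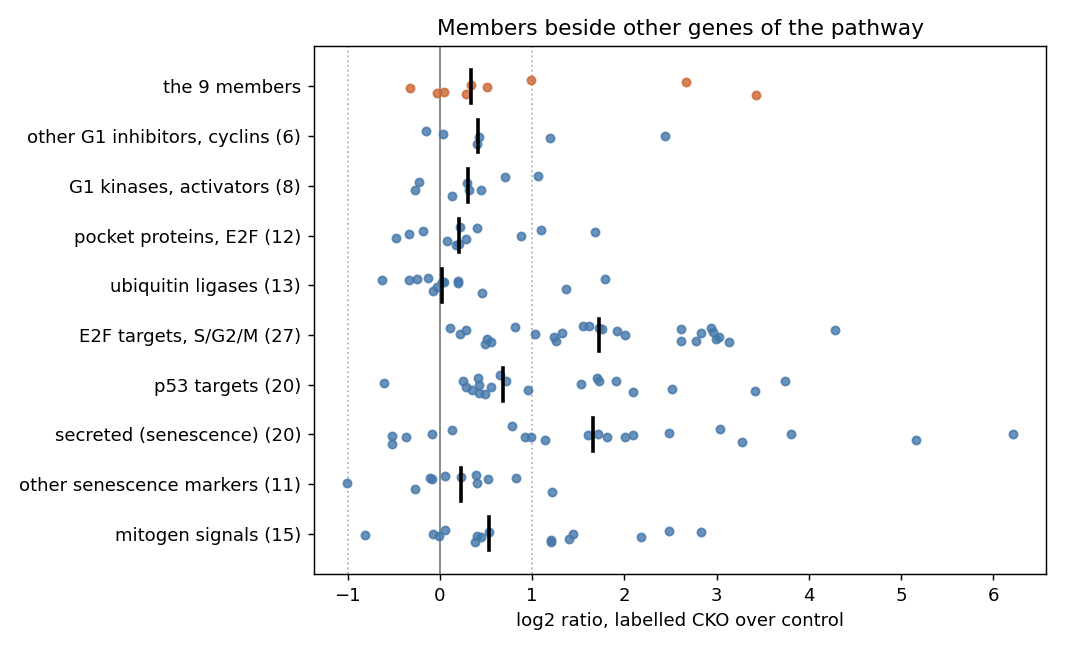
Log2 ratios of the library labelled CKO over the control for the 9 genes (top row) and for each pathway list (number of expressed genes in brackets); each point is 1 gene, black bars are medians and dotted lines mark 2-fold. The median of the 9 genes was 0.34, beside 1.72 for E2F targets and S/G2/M genes and 0.68 for p53 targets.

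Markers of several cell types also differed between the libraries. Their counts stand beside the 13.4% of all expressed genes at least 2-fold higher and the 5.35% at least 2-fold lower. Of 8 tubular injury genes, 7 were at least 2-fold higher, with a sum of 25374 control reads and 331865 scaled CKO reads, led by Spp1. Of 12 macrophage markers, 11 were at least 2-fold higher (sum 6637 and 34352, Cd74 most abundant), and of 8 fibroblast and pericyte markers 7 were (sum 7372 and 25077, Col3a1 most abundant). Of 7 expressed T cell markers 6 were at least 2-fold higher (sum 111 and 443, Thy1 most abundant), and of 3 expressed neutrophil markers 2 were (sum 42 and 173, Csf3r most abundant). Cd3e and Cd8a, both among the 6, and the neutrophil marker S100a8, which did not pass 2-fold, had 6, 8 and 7 control reads. These genes counted as expressed only through the library labelled CKO, so their direction was set by that filter. Of 10 proximal tubule markers 3 were at least 2-fold lower (sum 489468 and 275821, Slc34a1 most abundant), and of 7 thick limb and distal tubule markers 1 was (sum 146864 and 176632, Umod most abundant). Of 8 collecting duct markers (sum 16065 and 21129, Aqp2 most abundant), 9 endothelial markers (sum 16360 and 15240, Plvap most abundant) and 1 expressed B cell marker, Cd79b (23 and 26.7), 0 passed 2-fold. Of the markers listed, 1 for tubular injury, 2 for T cells, 5 for B cells and 5 for neutrophils were not analysed here. The part of these cell types in the levels of Cdkn1a, Ccne1 or the other 7 genes was not tested.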

How the data were processed

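Kidney RNA-seq of 1 control and 1 Reg-2 CKO library was analysed, grouped by the labels. The authors used STAR 2.7.3a for alignment, HTSeq for counting and DESeq2 for normalization. Their values from Cufflinks 2.2.1 were not used here. The deposited values, whole numbers that the authors call normalized counts, were treated as a score with no standard unit. The lowest values were 35 and 51 in the control and CKO columns, and 34 and 50 were subtracted to recover reads, so that these are reads plus a constant is an inference.

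CKO reads were scaled by 0.667 (median gene ratio), a pseudocount of 1 was added for log2 ratios, a gene needed 10 or more scaled reads in either library to be kept, and a difference of 2-fold or more was counted. No test between groups was made with 1 library per group. Intervals were exact (Clopper-Pearson for ratios and shares, Poisson for levels). Median depth was 284 and 514 reads per gene. Lengths and positions came from GENCODE M21, and promoter windows from RefSeq. Python 3.11.15, numpy 2.4.6, pandas 2.3.3, scipy 1.17.1 and matplotlib 3.10.9 were used, and the steps were tested on simulated data.

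The members, the pathway lists and the cell type lists were chosen with earlier results of these data known. Named genes were all members, the Regnase genes, and of each pathway list its highest, lowest and most abundant gene and every gene past 2-fold where there were 6 or fewer. Cell type lists are given mostly by their most abundant gene. Named after their values were seen were Mdm2, Mki67, Gdf15, Cdk1, Lcn2, Havcr1, genes with under 10 reads in 1 library (Bub1, Aurkb, Igfbp2, Lef1, Cd3e, Cd8a and S100a8), the genes of the promoter search, and the cyclin and Cdk genes of the closing section. A further gene list is not reported here. Promoter windows of Cdkn1c, Ccnd1 and Ccnd2 were not used here. Alternatives were a pseudocount of 0.1 or of 10, a filter at 50 reads or none, a threshold of 1.5-fold or of 4-fold, equal totals, equal upper quartiles, the median log2 ratio set to 0, the column minimum subtracted, and the constants kept with and without scaling.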

Additional observations from a re-analysis of the deposited data

How the results depend on the processing

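Cdkn1a and Ccne1 passed 2-fold in every alternative tried, and with the main scaling also 4-fold, although the direction of Ccne1 was set by the filter on reads. Of 72 alternative values for the 9 genes, 54 stayed within the counting interval and 18 moved beyond it. No gene past 2-fold changed sign, but Ccnd1 (-0.32) and Ccnd3 (-0.03) did, to 0.09 and 0.39 with equal totals and to 0.26 and 0.55 as deposited. The median log2 ratio of the 9 genes was 0.75 with equal totals. The values as deposited gave 0.85, and 4 of the genes then passed 2-fold (Cdkn1a, Ccne1, Cdkn1c and Ccnd2). Among all expressed genes, 2334 were at least 2-fold higher and 934 lower. Equal totals gave 3870 and 437, the values as deposited 3574 and 131, and the constants kept with scaling 1196 and 463. A threshold of 1.5-fold gave 3801 and 2423, one of 4-fold 749 and 166, and at least 50 scaled reads left 617 lower. The higher genes were 71.4% of those past 2-fold, 89.9% with equal totals, 96.5% with the values as deposited and 61.1% at 1.5-fold. Of 219 alternative medians of the lists, 179 stayed between the median lower and the median upper interval end of the list's genes and 40 moved outside, and among the cell type lists those of endothelium and of thick limb and distal tubule changed sign with equal totals (0.35 and 0.37), as did that of the proximal tubule, to 0.03, with the values as deposited.

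No paired analysis was possible because there was only 1 library in each group. Depth limits Ccne1, with 7 control reads, and Cdkn2b, with 71. No B cell marker was left at 50 reads, so that median was not computed.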

Other observations

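Of 24 expressed cyclin genes, taken by symbol and including the 4 cyclins of the report, 6 passed 2-fold upward in the library labelled CKO, beside 13.4% of all expressed genes, and all 6 were cyclins of the E, A, B or F type: Ccnb1 at 3.03, Ccne1 at 2.67, Ccne2 at 2.44, Ccnb2 (4.09-fold), Ccnf at 1.92 and Ccna2 at 1.72 on the log2 scale. Ccno was the only one at least 2-fold lower, at -1.14 with 13 and 8 reads and an interval from -2.76 to 0.09 that holds 0. Ccne1 and Ccno each counted as expressed only through the library in which they were higher, so their direction was set by that filter. The median of the family was 0.008. Of 18 Cdk kinase genes, Cdk1 at 3.13 and Cdk14 at 1.05 were at least 2-fold higher and 0 were lower, with a median of -0.007. Cdk4 and Cdk6, the partners of D-type cyclins, were at 0.32 and 0.29, and Cdk2, the partner of E-type cyclins, was at 0.71.

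Of the 19 genes whose window held the p53 element, 7 were expressed, and their median was 0.43. Cdkn1a and Gm15987 were at least 2-fold higher, and 0 were lower. Gm15987, with 4 and 50 reads, counted as expressed only through the library labelled CKO, so its direction was set by that filter. Cldn16 was at 0.83 and Calhm2 at 0.36. Rps27l, a ribosomal protein gene known as a p53 target, had 4148 and 6216 reads and a log2 ratio near 0, and Mthfd1 was lowest at -0.56. Of 323 expressed genes with the E2F letters, 39 were at least 2-fold higher, or 12.1%, and 12 were lower, with a median of 0.06, close to the 13.4% of all expressed genes.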
